A study of Homo sapiens with 12 samples.

Results

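The genes described here are 10 transcription regulators, most of them tied to the stress response that cells mount when amino acids run short. They are the activating transcription factors ATF3, ATF4 and ATF5, the C/EBP family members CEBPA, CEBPB, CEBPD, CEBPG and DDIT3 (also called CHOP), and their cofactors TRIB3 and NUPR1. They were picked out of the table by symbol alone, though the list was drawn up with earlier results of these data known. All 10 were found among the 19824 entries of the deposited table, and all 10 passed the filter on low values, CEBPA through U373 alone. Total RNA was sequenced from 2 human glioblastoma cell lines, U87 and U373, both given as wild-type and both grown in high-glucose DMEM with serum. The treated groups received 1 U/ml of BCT-100, a pegylated arginase I, which breaks down the arginine that cells take up from the medium. The control groups received PBS, and RNA was taken at 72 h in all 4 groups, U87 PBS, U87 BCT-100, U373 PBS and U373 BCT-100. Each group held 3 libraries, and since the labels do not say whether they came from separate cultures, the spread behind each p-value may be technical.

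When amino acids or other supplies fail, kinases that sense the shortage phosphorylate the translation factor eIF2 alpha, which lowers protein synthesis in general but favours translation of the ATF4 mRNA. ATF4 is a basic leucine zipper protein: it binds DNA as a dimer, often with a C/EBP partner such as CEBPB or CEBPG, at a composite sequence called the amino acid response element or C/EBP-ATF response element. Its targets include further regulators of the same kind, among them ATF3, ATF5, DDIT3, CEBPB and CEBPG, together with the pseudokinase TRIB3, which in turn binds ATF4 and restrains it. Only mRNA was measured here, so protein levels and translation are outside these data.

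Recovered library depths ran from 18.89 to 25.92 M reads, and levels below are the deposited scaled read counts, with means ± SD over n = 3 libraries. Changes are log2 differences on the scale log2(value + 1), with the standard error (SE) of limma's fit over the 13628 genes tested and p-values adjusted over all of these; a gene was called below an adjusted p of 0.05. The share of mitochondrially encoded mRNA was 5.84% to 6.06% in U87 PBS and 3.59% to 3.70% in U87 BCT-100, against 4.26% to 4.36% and 3.32% to 3.46% in U373. The summed level of 8 glial markers was also lower with BCT-100, moving from between 223511 and 227646 to between 108214 and 110646 in U87 and from between 281771 and 292978 to between 85881 and 86428 in U373. Of these markers GFAP (means of 3.58 and 1.37), SOX2 (0.652 and 0) and S100B (0 and 0.301) were near or at 0 in U87 PBS and BCT-100. VIM led the list and made up much of its sum in all 4 groups. In U87 4 of the 7 glial markers tested fell, 1 rose and 2 were not called, and in U373 6 fell and 1 rose. Over all genes tested, 35.7% fell and 33.6% rose in U87, and 35.8% fell and 35.6% rose in U373. GFAP, SOX2 and S100B passed the filter through U373 alone, so their U87 calls (GFAP lower, the others not called) rest on few reads. The marker that rose was OLIG2, from a mean of 20.6 to 108 in U87 and from 0 to 9.8 in U373. It passed the filter through U87. Of 8 leukocyte and microglial markers AIF1 and CD3E were at 0 in every group, and CD68 led the list at 6032 and 2453 in U87 and 442 and 152 in U373 (PBS and BCT-100). The list summed to between 6235 and 6401 in U87 PBS, between 2504 and 2669 in U87 BCT-100, between 444 and 497 in U373 PBS and between 213 and 238 in U373 BCT-100. CD14 rose in U373, from 19.8 to 70.2. In bulk RNA of this kind fewer cells of a type and less RNA per cell cannot be told apart, and the part of these shifts in the results below was not tested.

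Promoter sequence of the members is shown as a description, without a test. RefSeq windows of 300 bases on GRCh38.p14, from 250 bases before to 50 bases after each start site, were found for 8 of the 10 members (17 windows). The core of the amino acid response element, TGATGNAA on either strand, was in 2 of these 17 windows, those of CEBPG and ATF3, and in 3.62% of all 35116 windows. Counted by gene, this core was in 2 of 8 members (25.0%), 10 of 28 ATF4 amino acid response targets (35.7%) and 4.46% of all genes. Counted by window, the shares were 11.8% for members and 25.6% for these targets. Of 24 relatives in the ATF, CREB and C/EBP families, 3 held it (12.5%), JDP2, CREB5 and CREB3L2. Of these JDP2 rose in both lines, CREB5 rose in U373 and fell in U87, and CREB3L2 fell in both. The 2 member matches are shown beside those of 3 genes of the same response, JDP2, a relative of ATF3, ASNS, asparagine synthetase, and CHAC1, a glutathione-degrading enzyme. Capitals mark the match, each line is read 5′ to 3′ on the strand of the gene, and in CHAC1 the match is the reverse complement of the motif.
CEBPG: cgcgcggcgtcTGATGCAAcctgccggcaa
ATF3: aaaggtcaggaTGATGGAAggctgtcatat
JDP2: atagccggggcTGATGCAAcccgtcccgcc
ASNS: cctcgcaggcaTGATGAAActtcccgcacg
CHAC1: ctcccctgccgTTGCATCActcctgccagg
The CEBPG stretch is chr19:33374060-33374089 (plus strand), in an intron of the GENCODE gene model, with the match starting at position -42 from the RefSeq start. The ATF3 stretch is chr1:212565205-212565234 (plus strand), upstream of the annotated gene, with the match at -191. Those of JDP2 (chr14:75427995-75428024, plus strand, intron), ASNS (chr7:97872458-97872487, minus strand, exon) and CHAC1 (chr15:40953251-40953280, plus strand, exon) start at -16, -68 and -209. The cyclic AMP response element TGACGTCA and the C/EBP palindrome TTGCGCAA were in 0 of the 17 member windows and in 1.85% and 0.151% of all windows. A match describes these letters only, and no binding was measured.

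BCT-100 raised nearly all of these regulators in U87 and most of them in U373. In U87 9 of the 10 members rose, 0 fell and CEBPA was at 0 in all 6 libraries, with a median log2 change of 2.17. Over all genes tested, 33.6% were called higher and 35.7% lower in that comparison, with a median of -0.01. In U373 7 members rose, 2 fell (ATF5 and CEBPA) and CEBPD was not called, with a median of 1.76, where 35.6% of all genes were called higher and 35.8% lower around a median of 0.00. Of the 9 members with reads in both lines, 7 were called for a difference between the responses of the lines, against 56.8% of all genes. On the log2 scale ATF5, CEBPD and CEBPG responded more in U87 (3 of 9, where 26.1% of genes were called in that direction), and ATF4, TRIB3, CEBPB and NUPR1 responded more in U373 (4 of 9, against 30.7%). These members share their control libraries with each other and with the difference between the lines, so the counts are not independent of one another.

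**Figure D1:**
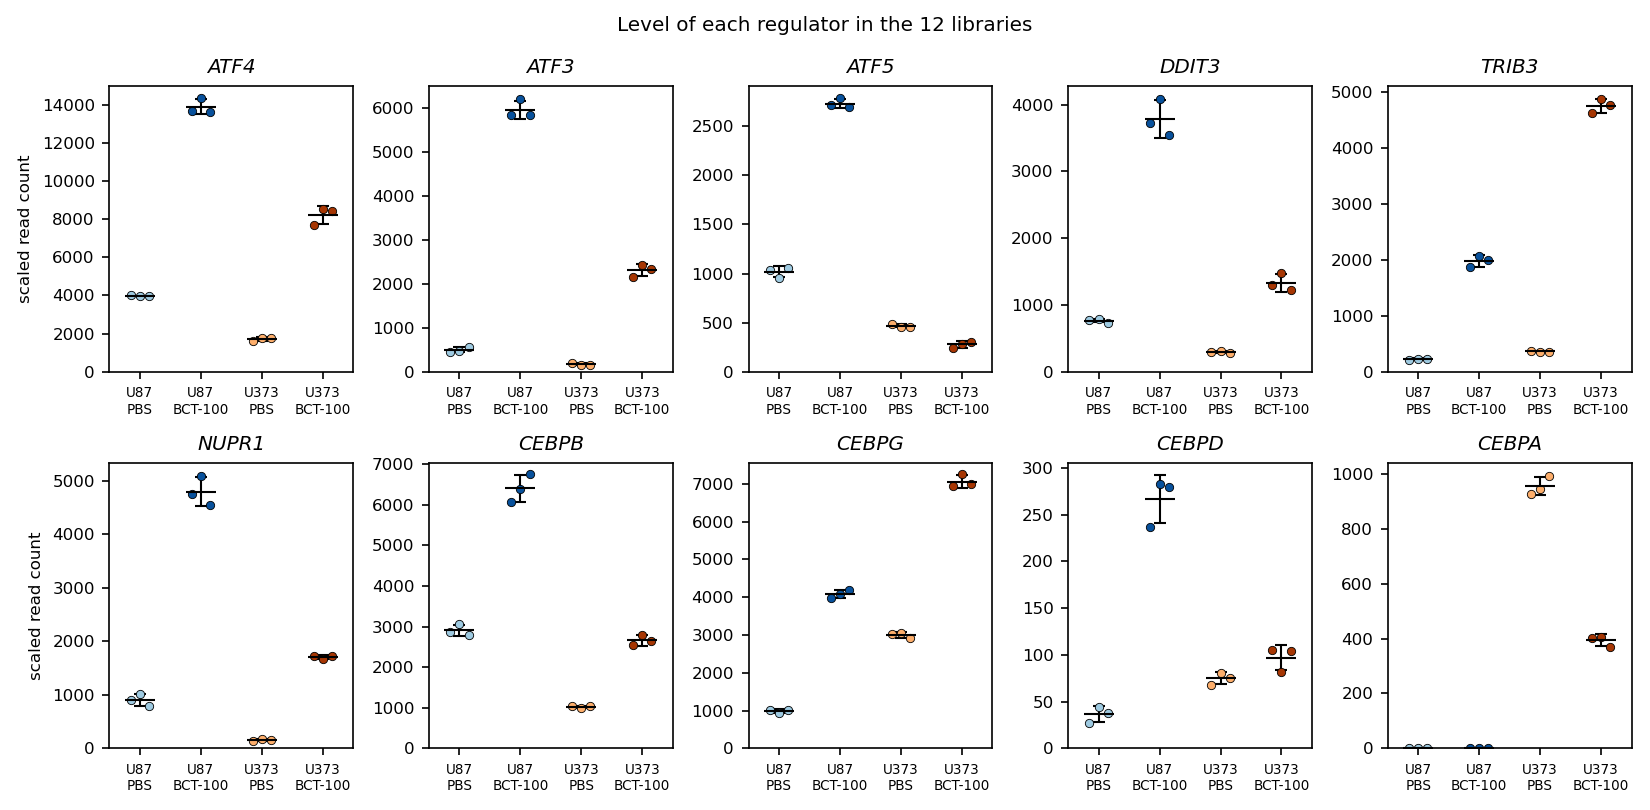
Scaled read count of each of the 10 regulators in the 12 libraries (points), with the group mean (wide bar) and SD (thin bars), on a separate linear axis for each gene. For ATF3, ATF4, DDIT3, TRIB3, NUPR1, CEBPB and CEBPG every BCT-100 library lies above every PBS library of its line, while ATF5 and CEBPA fall in U373 and CEBPA is at 0 in U87.

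ATF4 (chromosome 22, 39519695 to 39522685), the central activator of the response, stood at 4001, 3966 and 3973 scaled reads in the U87 PBS libraries and at 13691, 14340 and 13616 in U87 BCT-100. In U373 the PBS libraries held 1623, 1769 and 1782 and the BCT-100 libraries 7682, 8506 and 8435. The groups did not overlap, and their order was U87 BCT-100, U373 BCT-100, U87 PBS and U373 PBS, each step called by limma. The log2 change was 1.80 (SE 0.04) in U87 and 2.25 (SE 0.04) in U373, a difference of -0.45 (SE 0.06, limma adjusted p = 1.19e-06). The gain in scaled reads had the opposite order, 9902 (SE 230) in U87 and 6483 (SE 268) in U373, the starting level being the higher in U87. The difference on the log2 scale was no longer called when tested against a fold of 1.5 (adjusted p = 1.00). The annotation lists 4 pseudogenes named after ATF4, so some of its reads may have been shared among copies.

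ATF3 (chromosome 1, 212565334 to 212620777), an early stress factor that can repress as well as activate, had the largest log2 rise of the members in U87. Its U87 PBS libraries held 449.9, 484 and 567 scaled reads and the U87 BCT-100 libraries 5840.4, 6205 and 5841. In U373 it went from 212, 158 and 164 to 2163, 2441 and 2349. These are 3.58 (SE 0.11) in U87, place 74 of 13628 genes from the top, and 3.71 (SE 0.11) in U373, place 55. The responses of the lines were not called different (-0.13, 95% interval -0.46 to 0.20, limma adjusted p = 0.498). Without U373 PBS replicate 1, the highest of its group, the difference became -0.26 (adjusted p = 0.0389). The level was higher in U87 than in U373 in PBS (by 1.49, SE 0.11) and in BCT-100 (by 1.36, SE 0.11).

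ATF5 (chromosome 19, 49928702 to 49933935), an activator linked to survival of glioma cells and to the mitochondrial stress response, moved in opposite directions in the lines. In U87 it went from 1039, 959 and 1060.2 scaled reads in PBS to 2709.9, 2781 and 2695 in BCT-100. In U373 it went from 487, 459 and 460 down to 241, 288 and 308. Every treated library lay above the controls in U87 and below them in U373. The log2 change was 1.42 (SE 0.07, limma adjusted p = 4.23e-13) in U87 and -0.75 (SE 0.07, adjusted p = 8.35e-09) in U373, and the difference of 2.18 (SE 0.10) was called (adjusted p = 5.28e-13). Against a fold of 1.5 the fall in U373 was not called (adjusted p = 0.061), while the difference was. ATF5 shares 626 exonic bases with NUP62, a nuclear pore gene on the opposite strand, and the strand setting of the authors' counting is not given in the sources used here. NUP62 fell in both lines, by 0.69 in U87 and by 0.36 in U373.

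DDIT3 (chromosome 12, 57516588 to 57521737), a C/EBP family member that dimerises with other C/EBP proteins and is tied to cell death under lasting stress, rose in both lines. Its libraries held 777, 789 and 735 scaled reads in U87 PBS and 3722, 4089 and 3544 in U87 BCT-100. In U373 they held 298, 315 and 287 and then 1295, 1483 and 1223. The log2 changes of 2.30 (SE 0.07) in U87 and 2.14 (SE 0.07) in U373 were not called different (0.16, 95% interval -0.04 to 0.35, limma adjusted p = 0.165). Without U373 BCT-100 replicate 2, the highest of its group, the difference was 0.23 (adjusted p = 0.0281). DDIT3 shares 355 exonic bases with MARS, the methionyl-tRNA synthetase gene on the opposite strand, which itself rose by 1.18 in U87 and 1.57 in U373. Without strand, reads of this stretch cannot be told apart between the genes.

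TRIB3 (chromosome 20, 362835 to 397559), the pseudokinase that restrains ATF4, was higher in U373 than in U87 before and after treatment. The U87 libraries held 212, 235 and 237 scaled reads in PBS and 1865, 2068 and 1996 in BCT-100. The U373 libraries held 372.95, 357 and 358 in PBS and 4622, 4863 and 4765 in BCT-100. No groups overlapped, and U373 BCT-100 lay above all others. The log2 change was 3.11 (SE 0.05) in U87 and 3.71 (SE 0.05) in U373, place 56 of all genes from the top, and the difference of -0.60 (SE 0.08) was called (limma adjusted p = 1.64e-06). The same difference against a fold of 1.5 was not called (adjusted p = 1.00).

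NUPR1 (chromosome 16, 28532708 to 28539174), a small chromatin cofactor induced by many stresses, rose in both lines from very different starting levels. The U87 PBS libraries held 906, 1006 and 797 scaled reads and the U87 BCT-100 libraries 4753, 5094 and 4552. The U373 PBS libraries held 136, 178 and 163 and the U373 BCT-100 libraries 1721, 1668 and 1732. The untreated level was 2.50 (SE 0.09) higher in U87 on the log2 scale, and the treated level 1.49 (SE 0.09) higher. The log2 response was 2.41 (SE 0.09) in U87 and 3.42 (SE 0.09) in U373, a difference of -1.01 (SE 0.13, limma adjusted p = 9.04e-06). In scaled reads the gain was larger in U87, at 3897 (SE 169) against 1548 (SE 23.1).

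CEBPB (chromosome 20, 50190734 to 50192689), an activator of metabolic and inflammatory genes, was higher in U87 than in U373 in PBS (by 1.51, SE 0.04) and in BCT-100 (by 1.27, SE 0.04). It stood at 2874, 3057 and 2798 scaled reads in U87 PBS and at 6079.7, 6389 and 6753 in U87 BCT-100. In U373 it rose from 1032, 989 and 1032 to 2535, 2789 and 2652. The gain in scaled reads was 3498 (SE 209) in U87 and 1641 (SE 74.8) in U373. The log2 change was 1.14 (SE 0.04) in U87 and 1.38 (SE 0.04) in U373, and the difference of -0.25 (SE 0.06) was called (limma adjusted p = 0.00253), though not against a fold of 1.5. Treated U373 cells thus ended 0.13 below untreated U87 cells on the log2 scale (adjusted p = 0.0109), a gap that was not called against a fold of 1.5, without U87 PBS replicate 2 (adjusted p = 0.0767) or without U373 BCT-100 replicate 1 (adjusted p = 0.0684).

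CEBPG (chromosome 19, 33373330 to 33382686), a C/EBP protein without an activation domain of its own and a common partner of ATF4, was higher in U373. Its libraries held 1014, 933 and 1015 scaled reads in U87 PBS and 3977, 4093 and 4190.3 in U87 BCT-100. In U373 they held 3032, 3055 and 2917 and then 6937, 7246 and 6989. The treated U87 level was thus 0.45 (SE 0.04) above the untreated U373 level on the log2 scale, a step that was called (limma adjusted p = 7.33e-10) but not against a fold of 1.5. The log2 rise was 2.05 (SE 0.04) in U87 and 1.23 (SE 0.04) in U373, a difference of 0.82 (SE 0.05, adjusted p = 8.6e-11), whereas the gain in scaled reads was 3099 (SE 67.4) in U87 and 4056 (SE 105) in U373. CEBPG is the member whose promoter stretch is shown above with the capitals TGATGCAA.

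CEBPD, a single-exon gene whose product is an acute-phase and differentiation factor, rose in U87 from a low level. It went from 27.4, 44.6 and 38.3 scaled reads in U87 PBS to 237, 283 and 279 in U87 BCT-100. In U373 it stood at 68.1, 80.7 and 75.5 in PBS and at 105, 81.7 and 104 in BCT-100. The U87 groups were far apart, whereas in U373 the lowest treated library was 1 scaled read above the highest control. The log2 change was 2.85 (SE 0.18, limma adjusted p = 2.02e-11) in U87, and in U373 it was 0.36 (SE 0.18, adjusted p = 0.0822), which was not called. Without U373 BCT-100 replicate 2 the U373 value was 0.48 (adjusted p = 0.0392), and without U87 PBS replicate 1 it was called as well (adjusted p = 0.0474). The difference between the lines was 2.48 (SE 0.26, adjusted p = 8.06e-08). The order of the lines turned with treatment, U87 being 1.03 (SE 0.18) lower in PBS and 1.45 (SE 0.18) higher in BCT-100.

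CEBPA (chromosome 19, 33299934 to 33302564, minus strand), a differentiation factor that holds cell division back in several lineages, was detected in U373 only. All 6 U87 libraries were at 0, while the U373 libraries held 928, 946 and 992 scaled reads in PBS and 403, 407 and 368 in BCT-100. Against a floor of 3 reads over a group, the U373 level was at least 971-fold higher than that of U87 in PBS and at least 389-fold higher in BCT-100, counting error only. In U373 it fell by 1.28 (SE 0.25, limma adjusted p = 0.00013) on the log2 scale, the larger fall of the 2 members that fell there. In U87 no change could be measured, and the difference between the lines is not given for this gene. Antisense genes in the annotation share 659 and 482 bases with its exon.

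**Figure D2:**
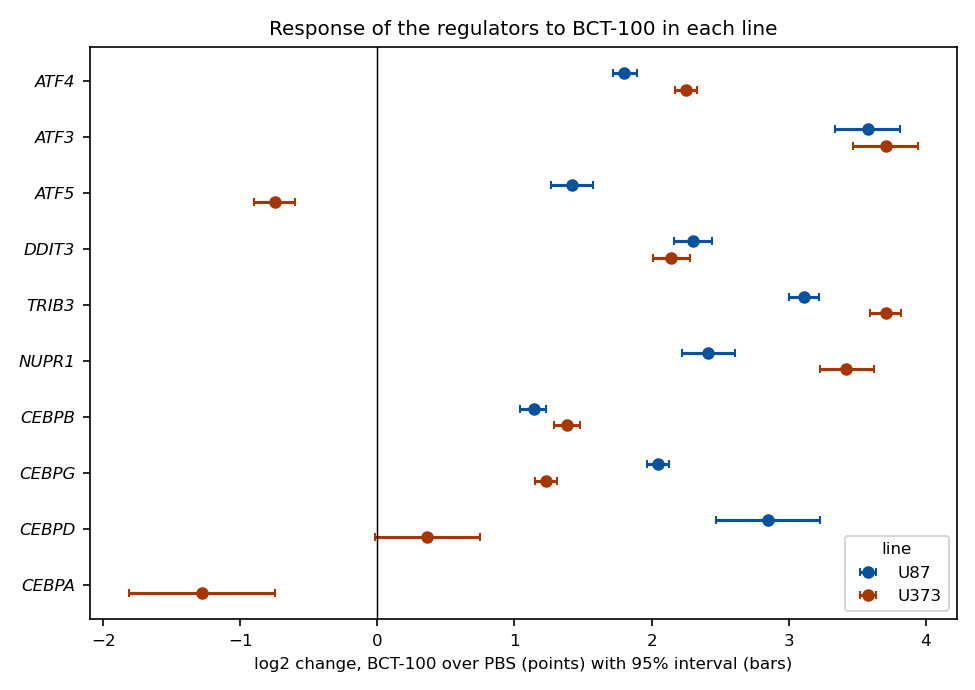
Log2 change of each regulator, BCT-100 over PBS, in U87 (blue) and U373 (orange), as points with 95% intervals of limma's fit; CEBPA has no point in U87, where it was at 0. The intervals lie on opposite sides of 0 for ATF5, overlap for ATF3 and DDIT3, and are furthest apart for CEBPD (2.85 in U87 and 0.36 in U373) and ATF5 (1.42 and -0.75).

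Untreated, the lines already differed in every member. In PBS 6 of the 10 were higher in U87 (ATF3, ATF4, ATF5, DDIT3, CEBPB and NUPR1), against 43.0% of all genes, and 4 were lower (TRIB3, CEBPG, CEBPD and CEBPA), against 40.1%. CEBPA is at 0 in U87 and passed the filter through U373 alone, so its side was fixed, and without it 3 of 9 were lower. In BCT-100 7 were higher in U87, against 42.0% of all genes, and 3 lower (TRIB3, CEBPG and CEBPA), against 42.4%, or 2 of 9 without CEBPA, and CEBPD was the gene that changed side. The comparisons of a treated group of one line with the untreated group of the other, used only to order the levels, called 10 of 10 members each, where 85.9% of all genes were called for U87 BCT-100 against U373 PBS and 85.9% for U87 PBS against U373 BCT-100. With shares of genes this high, a called step says little about the members as a group. For ATF3, ATF4, DDIT3 and NUPR1 the order of the groups was the same, U87 BCT-100, U373 BCT-100, U87 PBS and U373 PBS. For CEBPG and TRIB3 it was U373 BCT-100, U87 BCT-100, U373 PBS and U87 PBS. Neighbours in the order that were not called apart were the U373 groups of CEBPD and the U87 groups of CEBPA.

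Levels of different genes were compared only per kilobase of the longest coding transcript of GENCODE v29, and NUPR1 was left out because its annotated transcripts differ greatly in length. On this scale ATF4 was the highest of the other 9 in every group, from 854 ± 43.6 scaled reads per kb in U373 PBS to 6876 ± 197 in U87 BCT-100. In U87 PBS CEBPB followed at 1488 ± 68.2, and in U87 BCT-100 DDIT3 followed at 3547 ± 261 beside CEBPB at 3276 ± 172. In U373 PBS CEBPG followed at 730 ± 17.9, and in U373 BCT-100 TRIB3 followed at 1901 ± 48.5, up from 145 ± 3.56 per kb. These orders are descriptions, since transcript lengths in these cells were not measured.

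The makeup of each family on the same per-kb scale shifted with treatment and differed between the lines. Among ATF3, ATF4 and ATF5, ATF4 made up 72.8% ± 1.26 of the summed level in U87 PBS and 73.1% ± 2.42 in U373 PBS. With BCT-100 its share was 61.8% ± 0.0501 in U87 and 76.1% ± 0.237 in U373. ATF3 went from 9.07% ± 0.97 to 26.4% ± 0.174 of the sum in U87 and from 7.50% ± 1.39 to 21.3% ± 0.275 in U373, whereas ATF5 went from 18.2% to 11.9% and from 19.4% to 2.52%. The sum itself went from 2710 ± 46.7 to 11127 ± 322 per kb in U87 and from 1168 ± 21.8 to 5340.1 ± 309 in U373, so the ATF5 share in U87 was smaller with BCT-100 although its level rose.

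Among the 4 genes CEBPA, CEBPB, CEBPD and CEBPG, with DDIT3 set aside, CEBPB made up 85.2% ± 0.987 of the sum in U87 PBS and 31.6% ± 0.733 in U373 PBS, where CEBPG was the larger part at 44.3% ± 1.12. With BCT-100 the CEBPB share went to 74.6% ± 0.423 in U87 and to 41.5% ± 0.768 in U373. The CEBPG share went from 13.8% ± 1.09 to 22.7% ± 0.481 in U87 and to 52.5% ± 0.432 in U373. CEBPA was 22.0% ± 0.754 of the sum in U373 PBS and 4.56% ± 0.25 after BCT-100. The sum of these 4 was 1745 ± 59.5 per kb in U87 PBS and 1648 ± 2.21 in U373 PBS, and reached 4393 ± 208 in U87 and 3271 ± 101 in U373 with BCT-100. With DDIT3 added to them, the sums in PBS were 2463 ± 83.3 and 1929 ± 11.1, and the CEBPB share was 60.4% ± 0.807 in U87 PBS and 27.0% ± 0.798 in U373 PBS. The DDIT3 share then went from 29.2% ± 0.398 to 44.7% ± 2.44 in U87, beside 41.3% ± 2.04 for CEBPB, and from 14.6% ± 0.588 to 27.6% ± 1.51 in U373. No test was run on these shares.

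**Figure D3:**
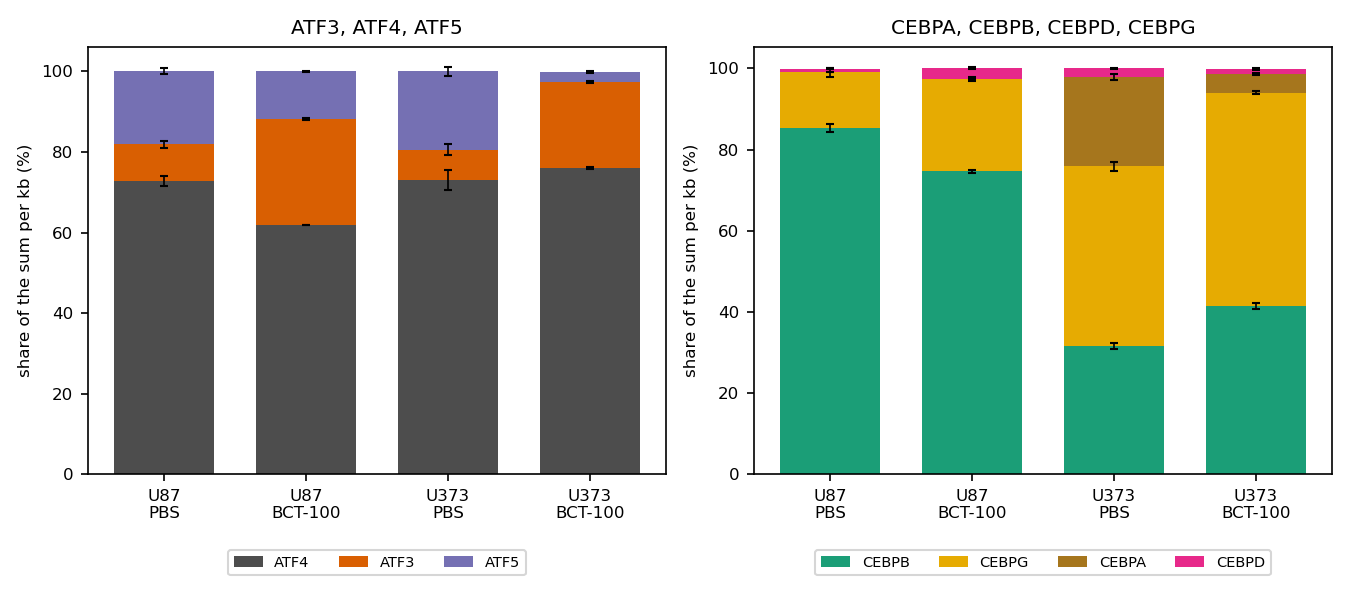
Share of each gene (stacked bars, %) in the summed per-kb level of ATF3, ATF4 and ATF5 (left) and of CEBPA, CEBPB, CEBPD and CEBPG (right) in the 4 groups, as the mean of 3 libraries with SD bars. ATF3 widens with BCT-100 in both lines, CEBPB makes up 85.2% of the sum of these 4 genes (DDIT3 not included) in U87 PBS and 31.6% in U373 PBS, and CEBPA narrows from 22.0% to 4.56% in U373.

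Of 23 tested relatives in the ATF, CREB and C/EBP families, 12 rose, 4 fell and 7 were not called in U87 (median 0.17), and 15 rose, 5 fell and 3 were not called in U373 (median 0.30), where the medians of all genes were -0.01 and 0. Over all genes 33.6% rose and 35.7% fell in U87, and 35.6% rose and 35.8% fell in U373, the shares to set beside each list count below. Against a fold of 1.5, 6 relatives were called higher and 2 lower in U87, and 8 and 2 in U373. XBP1, the activator of the endoplasmic reticulum stress response, rose from 1900.2 to 7784 scaled reads in U87 and from 1021 to 5381 in U373, or by 2.03 (SE 0.04) and 2.40 (SE 0.04) on the log2 scale. JDP2, which like ATF3 binds JUN proteins and whose stretch with TGATGCAA is shown above, rose by 1.65 (SE 0.11) in U87 and by 4.13 (SE 0.11) in U373, and NFIL3, a repressor related to the C/EBP proteins, by 1.75 (SE 0.07) and 2.97 (SE 0.07). CREB5 fell by 1.14 (SE 0.10) in U87 and rose by 1.93 (SE 0.10) in U373. ATF6B fell in both lines, by 0.75 (SE 0.06) and by 1.38 (SE 0.06). CREB3L2 fell by 0.54 (SE 0.03) in U87 and by 1.65 (SE 0.03) in U373.

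Among 17 AP-1, MAF and CNC genes, whose products can pair with ATF or C/EBP proteins, 12 rose, 0 fell and 5 were not called in U87 (median 0.88), and 11 rose, 1 fell and 5 were not called in U373 (median 0.53). Against a fold of 1.5 the rises were 7 in U87 and 6 in U373, and without U373 PBS replicate 1 the falls in U373 were 2. Of these 17 genes 1 passed the filter through U87 alone and 1, NFE2L3, through U373 alone. NFE2L3 had means of 0.303 and 0.947 in U87 PBS and BCT-100, so a fall could not be seen there. It gave the 1 fall called in U373. Of the 15 genes that passed in every group, 12 rose and 0 fell in U87 (median 0.93). In U373 11 of these 15 rose and 0 fell (median 0.59). MAFF, a small MAF protein, rose by 2.87 (SE 0.09) in U87 and by 2.49 (SE 0.09) in U373, and JUNB by 1.84 (SE 0.09) and 1.47 (SE 0.09). NFE2L1, an activator of proteasome genes, rose from 8909 to 34227 scaled reads in U87, or by 1.94 (SE 0.03), and by 0.59 (SE 0.03) in U373. BACH2, a repressor that pairs with small MAF proteins, rose by 1.82 (SE 0.25) in U373, and NFE2L3 fell there by 1.18 (SE 0.33).

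The Tribbles genes and the regulators of eIF2 alpha, which lies upstream of ATF4, moved in both directions. Of these 14 genes 4 rose, 8 fell and 2 were not called in U87, where 33.6% of all genes rose and 35.7% fell. In U373 6 rose, 6 fell and 2 were not called, where 35.6% of all genes rose and 35.8% fell. The rises were thus near the share over all genes. Against a fold of 1.5, 2 rose and 1 fell in U87, and 2 rose and 2 fell in U373. PPP1R15A (GADD34), the stress-induced subunit that directs dephosphorylation of eIF2 alpha, rose by 1.73 (SE 0.05) in U87 and by 2.39 (SE 0.05) in U373. Its constitutive relative PPP1R15B rose by 0.99 (SE 0.04) and by 1.16 (SE 0.04). EIF2AK4 (GCN2), the kinase that senses uncharged tRNA, was itself 0.57 lower (SE 0.03) in U87 and 0.13 lower (SE 0.03) in U373, and EIF2AK3 (PERK) 0.34 lower (SE 0.05) and 0.61 lower (SE 0.05). EIF2AK1 was 0.54 lower (SE 0.03) in U87 and 0.56 lower (SE 0.03) in U373, and EIF2AK2 was not called in either line. TRIB2, a relative of TRIB3, fell by 0.76 (SE 0.06) in U87 and by 1.06 (SE 0.06) in U373. KIAA0141 (DELE1), which carries mitochondrial stress to the eIF2 alpha kinases, rose by 0.57 (SE 0.05) and 0.52 (SE 0.05), while OMA1, the protease that cleaves its product, fell by 0.58 (SE 0.10) and 0.88 (SE 0.10).

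Known targets of ATF4 rose almost throughout. Of 37 ATF4 amino acid response genes, 36 rose in U87 (0 fell, 1 not called, median 2.03), and 35 rose in U373 (1 fell, 1 not called, median 2.55). The response was larger in U373 for 26 of the 37, larger in U87 for 4 and not called different for 7, where 30.7% and 26.1% of all genes were called in these directions. Against a fold of 1.5 these counts were 16 and 1. For ATF4 itself the difference was -0.45 on the log2 scale, which was not called against a fold of 1.5. Its gain in scaled reads was larger in U87 (9902 against 6483). Whether ATF4 mRNA bears on the difference in these genes was not tested. In PBS 21 of the 37 stood higher in U87 and 14 lower, against 43.0% and 40.1% of all genes. In BCT-100 14 stood higher and 20 lower, against 42.0% and 42.4%. STC2, a secreted glycoprotein, rose from 216 to 18129 scaled reads in U373 (6.39, SE 0.04) and from 5759 to 39627 in U87 (2.78, SE 0.04). Its U87 response minus its U373 response was -3.60, while its level was the higher in U87 before and after treatment. CHAC1 rose by 3.54 (SE 0.08) in U87 and by 5.47 (SE 0.08) in U373, and DDIT4, an inhibitor of mTORC1, rose by 3.63 (SE 0.05) in U87, 0.68 more than in U373. CBS, of cysteine synthesis, rose by 5.44 (SE 0.83) in U87 from a mean of 4.9 scaled reads, and by 3.37 (SE 0.83) in U373. CTH, of the same pathway, rose by 3.05 (SE 0.11) in U87 and by 4.47 (SE 0.11) in U373. VLDLR, a lipoprotein receptor, rose by 1.66 (SE 0.04) in U87 and fell by 0.11 (SE 0.04) in U373, a fall that was not called without U373 PBS replicate 3 or U373 BCT-100 replicate 3. Of these 37 genes 1 passed the filter through U87 BCT-100 alone, and of the 35 at 10 or more in every library 34 rose in U87 and 33 in U373.

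Genes linked to DDIT3 in cell death and recovery rose in 10 of 13 in U87 (1 fell, 2 not called, median 1.12) and in 9 of 13 in U373 (1 fell, 3 not called, median 0.62). The death receptor gene TNFRSF10A passed the filter through U87 BCT-100 alone, and of the 12 genes at 10 or more in every library 9 rose in each line. Against a fold of 1.5 the rises in U373 were 5 of 13. PMAIP1 (NOXA), a BH3-only inducer of apoptosis, rose from 399 to 2109.5 scaled reads in U87 (2.40, SE 0.05), 1.04 more than in U373. TNFRSF10B, the death receptor DR5, rose from 1397 to 4418 in U373 (1.66, SE 0.03), and the responses of the lines were not called different (-0.03, limma adjusted p = 0.578). GADD45A, a growth arrest gene, rose by 1.94 (SE 0.08) in U87 and 2.64 (SE 0.08) in U373. CAMK2G, a calcium-dependent kinase, fell by 0.83 (SE 0.06) and by 0.94 (SE 0.06).

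Most of the 13 mitochondrial chaperones and proteases linked to ATF5 rose in each line. In U373 11 of 13 rose, 1 fell and 1 was not called (median 0.41). In U87 8 rose, 4 fell and 1 was not called (median 0.20). Most of these changes were small, and against a fold of 1.5 only 2 rises were called in U373 and 1 in U87. ATF5 itself rose in U87 and fell in U373, a fall not called against a fold of 1.5 (limma adjusted p = 0.061). Whether ATF5 bears on these genes was not tested. HSPA9 (mortalin) rose from 18285 to 36579 scaled reads in U87 (1.00, SE 0.03) and from 11279.5 to 34217 in U373 (1.60, SE 0.03). LONP1, the mitochondrial protease, rose by 0.63 (SE 0.04) and 0.80 (SE 0.04), and HSPD1, the mitochondrial HSP60, by 0.4 (SE 0.02) and 0.64 (SE 0.02). HTRA2 rose by 0.59 (SE 0.06) in U87 and 0.45 (SE 0.06) in U373. SPG7, a subunit of an inner membrane protease, fell by 0.32 (SE 0.06) in U87 and by 0.50 (SE 0.06) in U373. HSPE1 fell by 0.19 (SE 0.04) in U87 and rose by 0.25 (SE 0.04) in U373.

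Of 21 acute phase and cytokine genes linked to CEBPB and CEBPD, 11 were tested, but 3 of these passed the filter through U87 libraries alone. The acute phase genes CRP, ORM1, ORM2, FGA and FGB were at 0 in every library. HP (group means up to 0.307) and SAA1 (up to 6.08) were also too low to be tested. Among the tested genes IL1B was close to the filter in U373, with means of 10.8 in PBS and 14.1 in BCT-100. Of the 8 at 10 or more in every library, 8 rose in U87 (median 4.45), and 5 rose, 2 fell and 1 was not called in U373 (median 1.83). The difference between the responses was called toward U87 for all 8 of these genes, where 26.1% of all genes were called in that direction. IL6, the cytokine that drives the acute phase response, rose from 216 to 20424 scaled reads in U87 (6.56, SE 0.14) and by 1.76 (SE 0.14) in U373. PTX3, a secreted pattern recognition protein, rose in both, by 4.02 (SE 0.07) and by 3.66 (SE 0.07). CXCL8 rose from 1680.1 to 97619 scaled reads in U87 (5.86, SE 0.13) and from 1943 to 24911 in U373 (3.66, SE 0.13). CXCL2 rose by 5.11 (SE 0.09) in U87 and by 2.23 (SE 0.09) in U373. CCL2, a monocyte chemokine, rose by 2.48 (SE 0.20) in U87 and fell by 2.65 (SE 0.20) in U373. LCN2, an iron-binding acute phase protein, had 3 reads over the U87 PBS libraries and 429 over U87 BCT-100, a ratio of 147 with a 95% counting interval of 49.8 to 714.

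**Figure D4:**
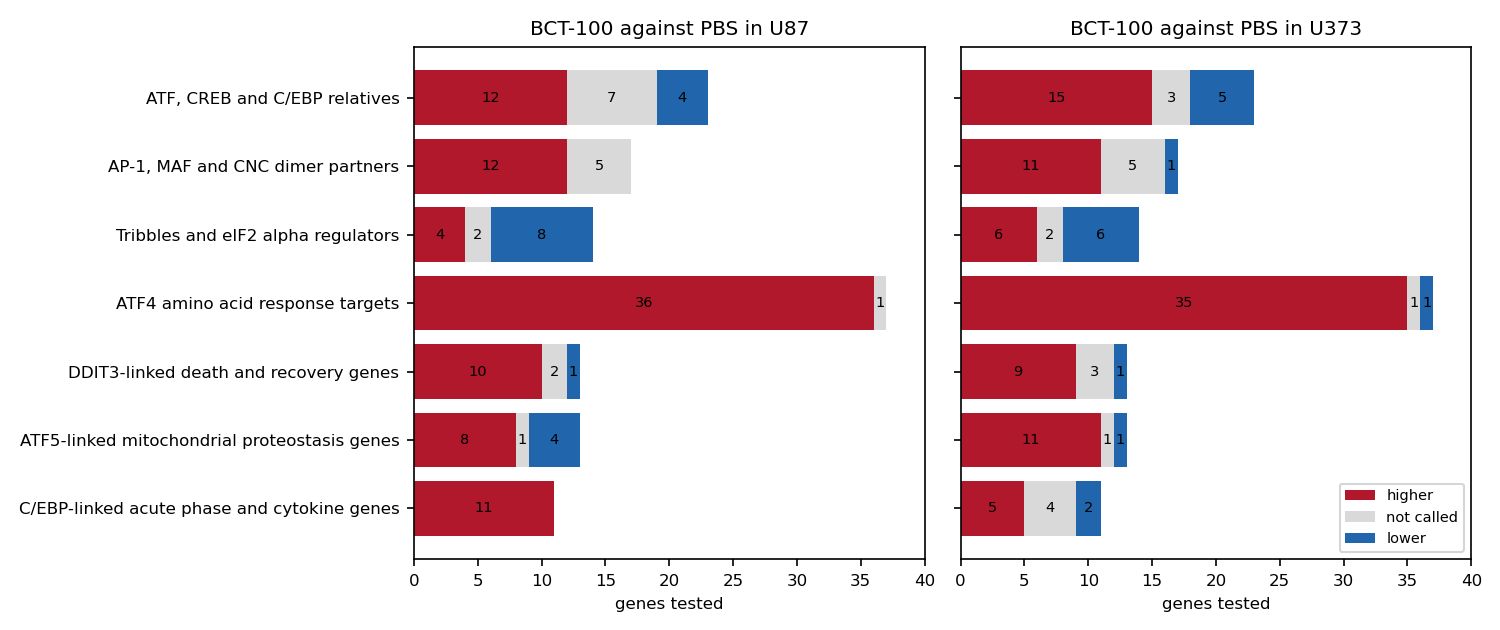
Number of tested genes called higher (red), not called (grey) and called lower (blue) with BCT-100 in U87 (left) and U373 (right) in 7 gene lists around the regulators. The ATF4 target list is red almost throughout (36 and 35 of 37), and the eIF2 alpha list has 4 higher and 8 lower in U87. The acute phase and cytokine list is red in U87 and mixed in U373. Of its 21 genes 11 were tested, and 3 of these passed the filter through U87 alone.

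The genes whose profiles over the 12 libraries lay closest to each member, measured as the root mean square distance of centred log2 values, were named by a fixed rule, 2 for each. ATF4 was closest to RAB39B (0.105) and to GARS, the glycyl-tRNA synthetase (0.114), and DDIT3 to ICOSLG (0.143) and to WARS, the tryptophanyl-tRNA synthetase (0.17). TRIB3 was closest to the amino acid transporters SLC7A5 (0.339) and SLC1A4 (0.418), ATF3 to SH3BGR (0.283) and CTH (0.344), and NUPR1 to VEGFA (0.21) and ALDH1L2 (0.239). CEBPB was closest to SLC25A37 (0.114) and EMG1 (0.116), and CEBPG to GSE1 (0.138) and RCAN1 (0.153). The opposite movement of ATF5 was shared by C1QTNF1 (distance 0.207, 1.52 in U87 and -0.55 in U373) and TNIP1 (0.261, 1.71 and -0.57). CEBPD was closest to CYP2E1 (0.368) and NR1D1 (0.39), and CEBPA to CX3CL1 (0.185) and DRD2 (0.205).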

How the data were processed

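RNA of 12 samples in 4 groups of 3 was analysed. Groups come from each sample's treatment label, because the treatment protocol names the PBS control throughout. The authors deposited 1 signal value per gene and library; per the submitters' processing notes STAR, RSEM and hg38 were used, without versions. The values read as RSEM counts divided by 1 factor per library, since 84.3% to 86.8% of nonzero values were whole within 0.001 once it was undone. The factor's method, library selection and strand are not given in the sources used here. Of 19844 entries 20 repeats were dropped and 42 share a symbol.

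The authors' scaling was kept. Genes at 10 or more in at least 3 libraries were tested on log2(value + 1) with limma 3.58.1 (R 4.3.3), using 4 group means, a trended robust prior and Benjamini-Hochberg adjustment at 0.05. The procedure was tested on simulated data. Named list genes are the 3 called genes with the largest rise and the 2 with the largest fall per line and list, at a mean of 50 or more in the higher group and with groups that do not overlap; others were named for their role, after values were known. The members, the lists and the rule were chosen with earlier results of these data known. Positions come from GENCODE v29 and promoters from RefSeq. The bounds and the ratio cover counting error only. Chi-square per gene between replicates was 2.29 to 3.86, where read sampling alone gives about 1.

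Alternatives were 3 other scalings, no filter or one at 50, pseudocounts of 0.5 and 5, voom, each line alone, a replicate block, a test against a fold of 1.5 and leaving out each library.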

Additional observations from a re-analysis of the deposited data

Results flagged for a closer look

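The responses of 7 regulators to BCT-100 differed between the lines by limma's test of the difference itself, given here as U87 minus U373 on the log2 scale. ATF5 (2.18), CEBPD (2.48) and CEBPG (0.82) responded more in U87, and ATF5 moved in opposite directions in the lines. ATF4 (-0.45), CEBPB (-0.25), TRIB3 (-0.60) and NUPR1 (-1.01) responded more in U373. Against a fold of 1.5 the differences of ATF4, CEBPB and TRIB3 were not called. The direction depends on the scale for some genes. In scaled reads ATF4, CEBPB and NUPR1 gained more in U87, and TRIB3 and CEBPG gained more in U373. A difference of this kind was called for 56.8% of all genes, so it is common in these data.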

How the results depend on the processing

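Of 1559 member values under 23 alternatives, 1544 kept their direction and call, and none reversed. The other 15 are the calls of ATF3, ATF4, ATF5, CEBPB, CEBPD, CEBPG, DDIT3 and TRIB3 named beside their results, the baseline of TRIB3 (-0.67, not called against a fold of 1.5, adjusted p = 0.154), and the CEBPA difference, which rests on a line at 0. Testing against a fold of 1.5 lowered the counts of called genes by construction, from 9450 to 2768 in U87, from 9724 to 3179 in U373 and from 7740 to 1747 for the difference. For the lines against each other it lowered them from 11325 to 5846 in PBS and from 11493 to 6086 in BCT-100, and to 6894 for U87 BCT-100 against U373 PBS and 6825 for U87 PBS against U373 BCT-100. Leaving out each library gave 8944 to 9454 called genes in U87, 9268 to 9714 in U373 and 7337 to 7566 for the difference. It gave 10968 to 11319 and 11169 to 11461 for the lines in PBS and BCT-100, and 11389 to 11687 and 11423 to 11682 for the crossed pairs of groups. Of 1568 list counts 59 moved by over 1.5 times, 45 of them against a fold of 1.5. The other 14 are counts of 3 genes or fewer in the main test and 5 or fewer in the alternative.

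No pairing of the samples by replicate number was seen, though with 3 libraries a group a weak pairing could go unseen. Same-numbered PBS and BCT-100 libraries correlated at -0.037, 0.063 and -0.05 in U87 and at -0.102, -0.036 and 0.007 in U373, in deviations from the group means over 11042 genes. A replicate block gave 9408, 9671 and 7650 called genes in U87, U373 and for the difference, and 11307, 11477, 11666 and 11692 for the other comparisons, and changed no call of a member.

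At 3 libraries a group, the calls on the line differences of ATF3 and DDIT3 and on CEBPD in U373 turn on single libraries, and the cause was not tested.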

Other observations

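The genes beside CEBPA on chromosome 19 were looked at after its values were seen. LRP3, a lipoprotein receptor family gene and the second gene before CEBPA (33177603 to 33208867), was also at 0 in all U87 libraries, and stood at 178 ± 35.9 scaled reads in U373 PBS and 224 ± 31.7 in U373 BCT-100. SLC7A10, an amino acid transporter gene between them, was at 0 in U87 and at 2.23 ± 2.91 and 2.28 ± 1.37 in U373. The next genes on the other side, CEBPG and PEPD, the gene of prolidase, were read in all 4 groups, PEPD at 1121 ± 52.0 and 769 ± 20.7 in U87 and at 1161 ± 52.0 and 652 ± 41.6 in U373 (PBS and BCT-100). No test of this neighbourhood was run.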
